A study of Mus musculus with 7 samples.

Results

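The retinoic acid genes described here are 9 genes of retinoid metabolism and response in the mouse ovary, namely Rdh10, Dhrs3, Aldh1a1, Aldh1a2, Cyp26a1, Cyp26b1, Crabp2, Rara and Rarb, out of 55487 gene identifiers in the count tables. They were chosen by name, with measured differences of the same 2 groups already known. Differences of these 9 genes between the groups are therefore given as a description, and calls of the fit across all genes, where counted, are no evidence about them. All 9 genes passed the filter on low counts, as did 18779 genes in all. The study compared ovaries of mice whose ancestors had been exposed to anti-Müllerian hormone (AMH) before birth with ovaries of control mice, to find transcripts that differ in the third generation of a line with traits of polycystic ovary syndrome. Ovarian RNA at diestrus on postnatal day 60 came from 3 CNTR and 4 PAMH F3 mice of the C57BL/6J strain, with one library per mouse. CNTR mice were offspring of dams injected with PBS. PAMH F3 mice descended from F0 dams that had received human recombinant AMH at 0.12 mg/kg per day between E16.5 and E18.5, without any AMH in the later pregnancies. The control mice were F1 animals, so ancestral AMH exposure and generation cannot be told apart. In whole-ovary RNA, fewer cells of a type and less RNA per cell cannot be told apart either.

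Retinoic acid is made from vitamin A in 2 oxidation steps, from retinol to retinaldehyde and from retinaldehyde to retinoic acid. It enters the nucleus with a small carrier protein, binds retinoic acid receptors that sit on DNA as heterodimers with retinoid X receptors, and is cleared by hydroxylases of the CYP26 family. In the fetal ovary, retinoic acid is known for its part in the entry of germ cells into meiosis, and in the adult ovary the synthesis enzymes are found in granulosa, theca and surface cells. Cyp26a1 and Rarb are textbook direct targets of the receptors, through paired half-sites in their promoters.

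The promoter sequences of Cyp26a1 and Rarb are shown because they alone, of the member promoters matched, held a direct repeat of 2 half-sites spaced by 5 bases, the arrangement called DR5. RefSeq promoter windows of the GRCm38.p6 assembly, from 250 bases before to 50 bases after a start, were matched for 7 of the 9 genes in 13 windows. No window was matched for Rdh10 and Crabp2. The half-sites searched, on both strands, were AGGTCA, the variant AGTTCA, the variant GGGTCA and the variant GGTTCA. A DR5 of these letters was present in 32 of 32851 windows (0.0974%) and in 31 of 27025 genes (0.115%). Repeats spaced by 1 base (0.222% of windows) or by 2 bases (0.268%) were not present in a member window. A match gives the letters only and is not a measured binding site. The sequences run 5′ to 3′ along the strand of the gene, and capitals mark the half-sites.
Cyp26a1, chr19:37697658-37697797, plus strand: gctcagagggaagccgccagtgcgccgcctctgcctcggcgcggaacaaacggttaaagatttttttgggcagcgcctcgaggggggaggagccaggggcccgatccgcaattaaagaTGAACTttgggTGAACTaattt
Rarb, chr14:16575506-16575535, minus strand: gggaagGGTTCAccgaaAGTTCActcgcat

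In Cyp26a1 the repeat lay on the opposite strand, from 32 to 16 bases before the RefSeq start, so the printed strand shows TGAACT, the reverse complement of AGTTCA. In Rarb it lay on the strand of the gene, from 53 to 37 bases before the RefSeq start. The same bases are within the 5′ untranslated first exon of the GENCODE M21 transcripts Rarb-201 and Rarb-207, which start farther upstream. The fitted differences of the pair of genes with this repeat did not share a sign, as the values below show, and the groups of both overlapped.

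Reads counted on genes numbered between 32158174 and 35485021 per library. CNTR replicate 2 stood apart in base composition, with log2 CPM rising by 0.30 for each 10% of exon GC content relative to the mean of all libraries, against slopes between -0.12 and 0.05 in the other 6 libraries. CNTR replicate 1 had the lowest value on the second surrogate variable, a covariate estimated from the counts. It was at -0.62, against 0.53 and 0.50 in the other CNTR libraries, and the PAMH F3 libraries lay between, from -0.27 to -0.02. Fitted differences of the retinoic acid genes that moved by over 1.5 times without CNTR replicate 1 or 2 are also given without that library. Markers of granulosa cells and oocytes were present in every library, with Foxl2 between 41.0 and 82.4 CPM and Gdf9 between 68.0 and 109 CPM. The theca hormone Insl3 averaged 0.059 CPM, whereas the theca enzyme Cyp17a1 lay between 141 and 428 CPM. The oviduct glycoprotein Ovgp1 reached between 2394 and 6172 CPM, so the dissected tissue held oviduct RNA. CPM are edgeR's counts scaled to library size, with TMM factors, throughout.

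Levels per kilobase of median transcript length placed the synthesis gene Aldh1a1 far above the rest of the 9 genes. Aldh1a1 averaged 1732 ± 310 CPM per kilobase (SD, n = 7). Dhrs3 followed with 70.2 ± 11.9 and Aldh1a2 with 49.9 ± 7.89 CPM per kilobase. Their ranges over libraries overlapped, whereas that of Aldh1a1 (from 1274 to 2209) did not overlap with either. Crabp2 (23.8 ± 4.67), Cyp26a1 (17.9 ± 7.28), Rdh10 (16.7 ± 2.61) and Rara (12.4 ± 3.47 CPM per kilobase) formed a run in which each overlapped with the next. Rarb was lower, at 2.51 ± 0.34 CPM per kilobase, and Cyp26b1 was the lowest at 0.89 ± 0.18, with no overlap between them. The order depends on the length used. Per kilobase of merged exons, Aldh1a2 came before Dhrs3, Rdh10 before Cyp26a1 and Cyp26b1 before Rarb, and Aldh1a1 stayed first at 506 CPM per kilobase.

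**Figure D1:**
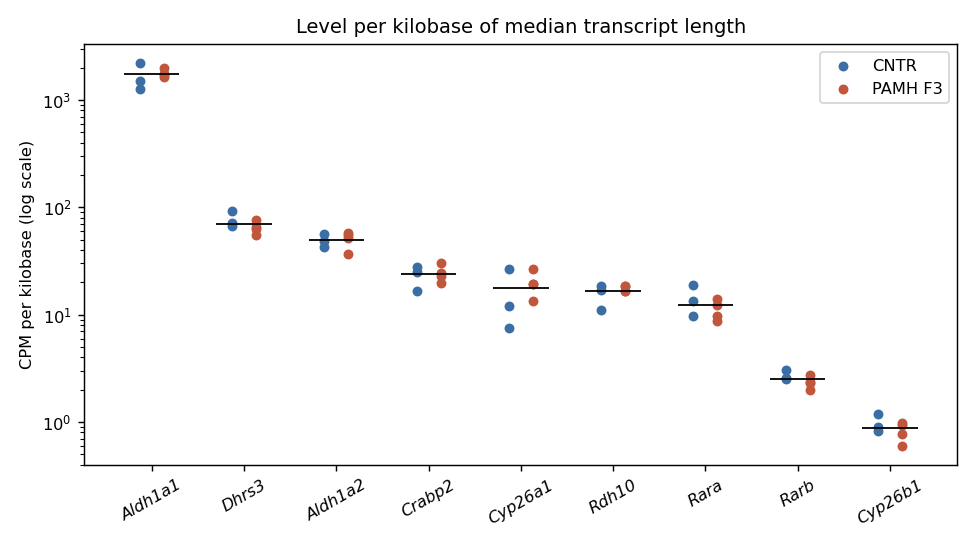
Level of each retinoic acid gene in CPM per kilobase of median transcript length on a log scale, with 1 point per library (blue CNTR, red PAMH F3) and a line at the mean of all 7 libraries. Aldh1a1 sits far above the other 8 genes, and Crabp2, Cyp26a1, Rdh10 and Rara overlap in sequence.

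Rdh10 (ENSMUSG00000025921, chr1:16105774-16133734, plus strand) encodes the retinol dehydrogenase that makes retinaldehyde in the first step of synthesis. Its level was 47.4, 50.9 and 30.8 CPM in CNTR replicates 1, 2 and 3 and 46.6, 50.8, 51.8 and 46.6 CPM in PAMH F3 replicates 1 to 4. CNTR replicate 3 was the low library, and the other 6 lay within a narrow band shared by both groups. The log2 difference, PAMH F3 minus CNTR, was 0.21 with a standard error of 0.10 in the fit with 2 surrogate variables and 0.19 without them. It was 0.04 without CNTR replicate 3 and ranged up to 0.30 in the alternative fits.

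Dhrs3 (ENSMUSG00000066026, chr4:144892827-144928209, plus strand) encodes the reductase that turns retinaldehyde back into retinol, the reverse of the Rdh10 step. Its level was 87.0, 114 and 82.5 CPM in the CNTR libraries and 76.6, 80.6, 94.1 and 67.9 CPM in the PAMH F3 libraries. PAMH F3 replicate 3 lay above CNTR replicates 1 and 3, and the other 3 PAMH F3 libraries lay below all CNTR libraries. Its log2 difference was -0.16 with a standard error of 0.06, and it stayed between -0.27 (without CNTR replicate 1) and -0.12 (without CNTR replicate 2) in 18 alternative fits.

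The ratio of Dhrs3 to Rdh10, in CPM per kilobase, sets the reductase beside the dehydrogenase of the same step. It was 4.15, 5.04 and 6.07 in the CNTR libraries and 3.72, 3.59, 4.11 and 3.30 in the PAMH F3 libraries. The groups did not overlap, but CNTR replicate 1 and PAMH F3 replicate 3 were close together. The highest ratio was in CNTR replicate 3, the low library for Rdh10 (30.8 CPM). How often such ratios of other gene pairs do not overlap was not computed. The group means were 5.09 ± 0.96 (SD, n = 3) and 3.68 ± 0.34 (SD, n = 4). This is a description of values that chose the genes. In the ratios of Aldh1a1 to Aldh1a2, Cyp26a1 to Cyp26b1 and Rara to Rarb the groups overlapped.

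Aldh1a1 (ENSMUSG00000053279, chr19:20492715-20643465, plus strand) encodes a retinaldehyde dehydrogenase, which makes retinoic acid in the last step of synthesis. Its level was 1837, 2165 and 3186 CPM in the CNTR libraries and 2349, 2531, 2538 and 2885 CPM in the PAMH F3 libraries. The CNTR libraries held both the lowest and the highest value, and all PAMH F3 libraries lay between them. In the fit with surrogate variables its log2 difference was 0.22 with a standard error of 0.09, and it was -0.02 without CNTR replicate 1, the lowest library.

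Aldh1a2 (ENSMUSG00000013584, chr9:71215789-71296243, plus strand) encodes another retinaldehyde dehydrogenase, the one on which the embryo mainly depends. Its level was 127, 95.7 and 110 CPM in the CNTR libraries and 131, 118, 83.0 and 126 CPM in the PAMH F3 libraries. PAMH F3 replicate 3 and CNTR replicate 2 were low, and the groups overlapped across their range. It differed by -0.07 on the log2 scale with a standard error of 0.11 with surrogate variables and 0.05 without them. It was 0.12 without CNTR replicate 1, so that it had no fixed sign.

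Cyp26a1 (ENSMUSG00000024987, chr19:37697798-37701536, plus strand) encodes the hydroxylase that clears retinoic acid and is induced by it. Its level was 9.19, 32.7 and 14.8 CPM in the CNTR libraries and 23.7, 23.9, 32.5 and 16.49 CPM in the PAMH F3 libraries. CNTR replicate 2 was the highest of all libraries, and the other CNTR libraries were the lowest. The coefficient of variation over the 7 libraries was 40.7%, and 92.7% of all tested genes had a lower one. The mean was 18.9 ± 12.3 CPM in CNTR (SD, n = 3) and 24.1 ± 6.54 CPM in PAMH F3 (SD, n = 4), a ratio of 1.28.

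The fitted difference of Cyp26a1 depended on the covariates and on single control libraries. It was 0.86 on the log2 scale with a standard error of 0.16 in the fit with 2 surrogate variables, and 0.36 with a standard error of 0.39 without them. The value without CNTR replicate 1 was 0.12, and the value without CNTR replicate 2 was 1.06. Its sign was positive in all 18 alternative fits. With GC content and transcript length corrected and no surrogate variables, the log2 difference was 0.43. The part of base composition or of the surrogate variables in this result was not tested beyond these fits.

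Cyp26b1 (ENSMUSG00000063415, chr6:84571414-84593908, minus strand) encodes a second retinoic acid hydroxylase. Its level was 3.44, 3.72 and 4.98 CPM in the CNTR libraries and 3.26, 4.10, 3.91 and 2.51 CPM in the PAMH F3 libraries. CNTR replicate 3 was high and PAMH F3 replicate 4 was low, with the other 5 libraries in between. The log2 difference was -0.15 with a standard error of 0.24, and without CNTR replicate 3 it was 0.08. It was -0.29 without CNTR replicate 1 and -0.25 without CNTR replicate 2. The counts behind these values lay between 80 and 161 per library.

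Crabp2 (ENSMUSG00000004885, chr3:87948666-87953376, plus strand) encodes the carrier that delivers retinoic acid to its nuclear receptors. Its level was 19.9, 22.1 and 13.2 CPM in the CNTR libraries and 18.1, 19.2, 24.1 and 15.7 CPM in the PAMH F3 libraries. CNTR replicate 3 was again the lowest library, as it was for Rdh10. The log2 difference was 0.11 with a standard error of 0.08 and ranged from 0.01 (without CNTR replicate 3) to 0.18 (without CNTR replicate 1) in the alternative fits.

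Rara (ENSMUSG00000037992, chr11:98927818-98974942, plus strand) encodes retinoic acid receptor alpha. Its level was 24.3, 46.5 and 33.4 CPM in the CNTR libraries and 24.2, 30.1, 34.5 and 21.6 CPM in the PAMH F3 libraries. CNTR replicate 2 stood above the rest, and the remaining CNTR libraries lay within the PAMH F3 range. The log2 difference was -0.10 with a standard error of 0.09 with surrogate variables and -0.33 without them. It was -0.51 without CNTR replicate 1 and -0.04 without CNTR replicate 2. Exons of Rara had the highest GC content of the 9 genes, 59.2%, and the difference without surrogate variables was -0.13 once GC content and length were corrected.

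Rarb (ENSMUSG00000017491, chr14:16430839-16819156, minus strand) encodes retinoic acid receptor beta, which is itself induced by retinoic acid. Its level was 3.19, 2.70 and 2.66 CPM in the CNTR libraries and 2.49, 2.89, 2.45 and 2.07 CPM in the PAMH F3 libraries. Only PAMH F3 replicate 2 lay above the lowest CNTR libraries, and the other PAMH F3 libraries lay below them. The log2 difference was -0.24 with a standard error of 0.18, and it was -0.10 without CNTR replicate 1. The value is uncertain because 1793 of the 5265 exon bases of Rarb overlap with Top2b on the opposite strand and the strand setting of the counting is not given in the sources used here. Rarb and Cyp26a1, the genes with a DR5, thus had fitted differences of opposite sign, but the groups of both overlapped.

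**Figure D2:**
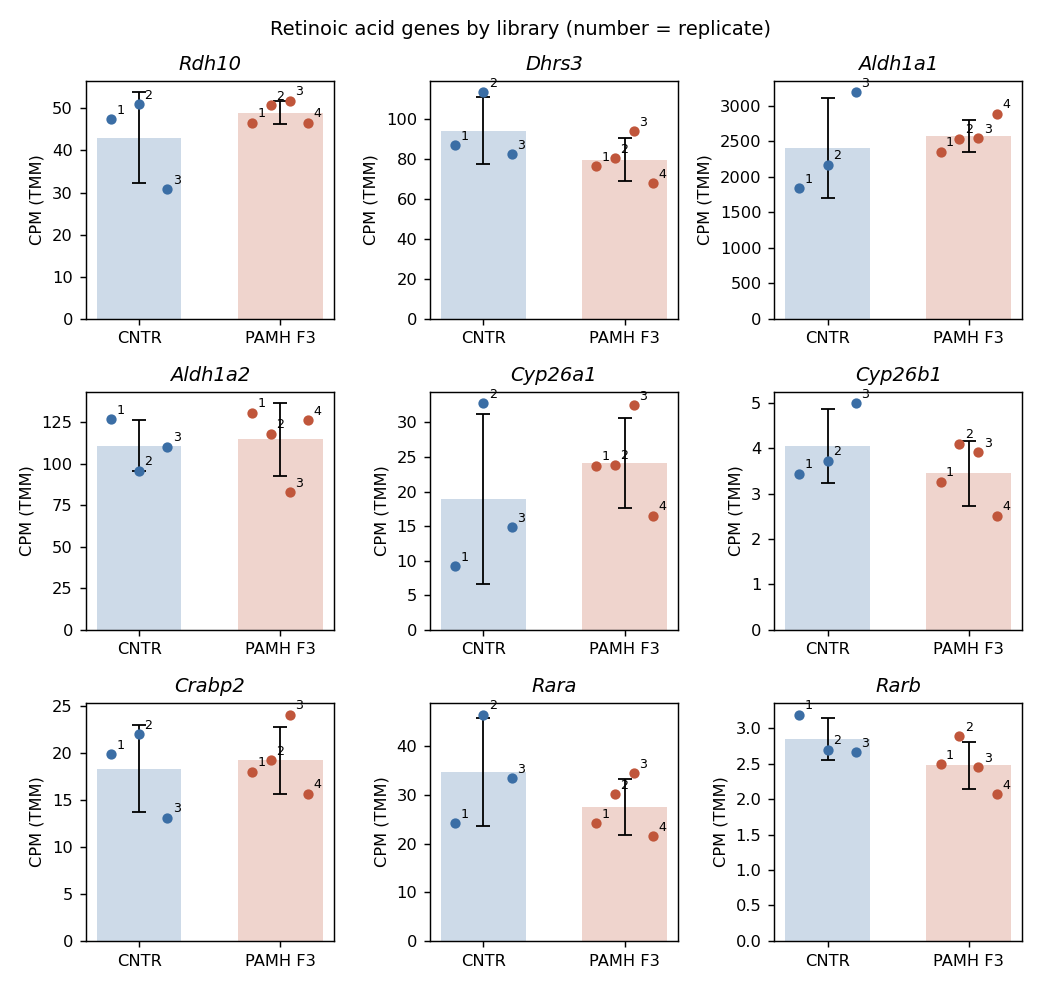
CPM of the 9 retinoic acid genes, with 1 point per library labelled by its replicate number, bars from 0 at the group mean and error bars of 1 SD (3 CNTR and 4 PAMH F3 libraries). The groups overlap in every panel, and in Cyp26a1 the CNTR libraries hold both the highest (32.7 CPM) and the lowest value (9.19 CPM).

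As a group, 4 of the 9 genes were higher and 5 were lower in PAMH F3 in the fit with 2 surrogate variables. Their median log2 difference was -0.07, against 0.01 over all tested genes. None of the 9 had groups that did not overlap. Over all tested genes, groups did not overlap in 1.85% with PAMH F3 higher and in 2.40% with PAMH F3 lower. By edgeR's quasi-likelihood F test with Benjamini-Hochberg adjustment, 0 of 9 genes were called, as were 0 of all 18779 genes (0%). At an unadjusted p under 0.05 the same test gave 1432 genes (7.63%). When DESeq2 was run with these 2 surrogate variables, 107 genes out of 18779 passed the adjusted threshold. Of the 9 genes, only Cyp26a1 was among them. This call is no evidence about Cyp26a1, because the 9 genes were chosen with differences between these groups already known. PAMH F3 replicate 4 had the lowest level of all 7 libraries in 4 of the 9 genes, namely Dhrs3, Cyp26b1, Rara and Rarb. Signs changed in at least 1 of 18 alternative fits for Aldh1a1, Aldh1a2, Cyp26b1 and Rara, and in none for the other 5 genes.

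**Figure D3:**
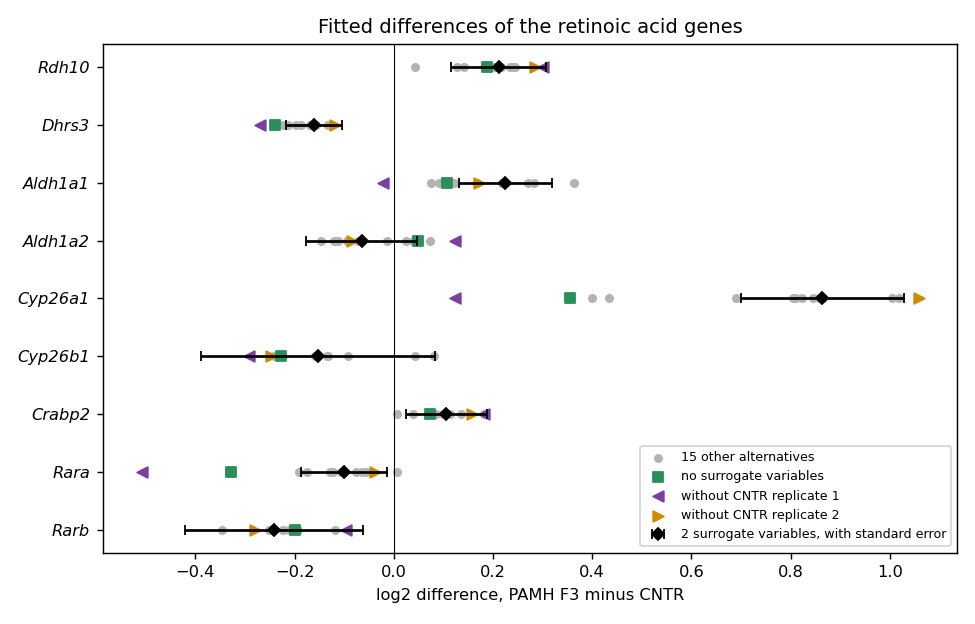
Log2 difference of each retinoic acid gene, PAMH F3 minus CNTR, in the fit with 2 surrogate variables (black, with its standard error) and in 18 alternative fits. Cyp26a1 moves most, from 0.12 without CNTR replicate 1 to 1.06 without CNTR replicate 2, while the other 8 genes lie between -0.51 and 0.36.

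Across the 7 libraries, Rdh10 and Crabp2 varied together. Their log2 CPM correlated with Pearson's r = 0.85 (exact permutation test, two-sided, p = 0.0028, adjusted p = 0.10 over 36 pairs) and Spearman's rho = 0.93 (exact p = 0.0067, adjusted p = 0.22). Without CNTR replicate 3 and PAMH F3 replicate 3, the libraries farthest from the median of Rdh10, r was 0.72, and with the group means removed it was 0.89. The correlation of these 2 genes thus did not pass the adjusted threshold.

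Dhrs3 and Rara also varied together, with r = 0.88 (exact permutation p = 0.0099, adjusted p = 0.18) and rho = 0.89 (exact p = 0.012, adjusted p = 0.22). The relation rested on CNTR replicate 2 and PAMH F3 replicate 4, without which r was 0.48, and r was 0.72 without CNTR replicate 2 alone. Aldh1a2 and Rara varied in opposite directions, with r = -0.78 (exact permutation p = 0.032, adjusted p = 0.38) and rho = -0.86 (exact p = 0.024, adjusted p = 0.29). Without CNTR replicate 2 and PAMH F3 replicate 3, r was -0.91. None of the 36 pairs passed the adjusted threshold, and these 3 had an unadjusted p under 0.05.

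Cyp26a1, the most variable of the 9 genes, was set beside all 18779 tested genes. The 3 genes with the most similar pattern of log2 CPM over the 7 libraries were Dmac2 (r = 0.99), Esp8 (r = 0.99) and Dhps (r = 0.97). These were the highest of 18779 values over 7 libraries, and they describe likeness only. Dmac2 lay between 24.3 and 34.2 CPM and, like Cyp26a1, was lowest in CNTR replicate 1 and highest in CNTR replicate 2.

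Levels of the 9 genes were also set beside summed CPM of 10 marker lists, as 90 relations computed on the log2 scale after the data had been seen. Aldh1a1 rose with the sum of 7 granulosa markers (r = 0.89, exact permutation p = 0.0024, adjusted p = 0.21 and rho = 0.89, exact p = 0.012, adjusted p = 0.54). Without CNTR replicate 3 and PAMH F3 replicate 4, r was 0.72. The granulosa sum was between 3301 and 5622 CPM in CNTR and between 3938 and 5714 CPM in PAMH F3. CNTR replicate 3 and PAMH F3 replicate 4 were high in both measures. Most of the sum came from Inha (1318 to 2130 CPM) and Inhba (936 to 2526 CPM). Both, with Fshr, Cyp19a1 and Nr5a2, were highest in these libraries, but not all 7 markers were. Amh was at 78.0 and 84.0 CPM there, against 124 and 140 CPM in CNTR replicates 1 and 2. Foxl2 was highest in CNTR replicate 2. By mean CPM 3 of the 7 markers were higher in PAMH F3, and 5 of 7 were in the fit with surrogate variables. Of these markers, 0 were called and none was at 0 in every library. The part of granulosa RNA in the Aldh1a1 values was not tested further.

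Crabp2 varied with the sum of 5 oviduct epithelium markers (r = 0.83, exact permutation p = 0.021, adjusted p = 0.38 and rho = 0.86, exact p = 0.024, adjusted p = 0.54), and r was 0.78 without PAMH F3 replicates 3 and 4. The oviduct sum ranged from 3063 to 5424 CPM in CNTR and from 2722 to 6478 CPM in PAMH F3. Of the 5 markers, 4 were higher in PAMH F3, 0 were called and none was at 0 in every library. Ovgp1 made up most of the sum (2394 to 6172 CPM), so the relation is mainly one with Ovgp1. Like Crabp2 and Ovgp1, Pax8 was highest in PAMH F3 replicate 3. Foxj1 was highest in CNTR replicate 2, Tekt1 in PAMH F3 replicate 2 and Dnah5 in PAMH F3 replicate 4 (195 CPM). Crabp2 ran against the granulosa sum (r = -0.88, exact permutation p = 0.0091, adjusted p = 0.21 and rho = -0.82, exact p = 0.034, adjusted p = 0.60), but without CNTR replicate 3 and PAMH F3 replicate 4 r was -0.30. None of the 90 relations passed the adjusted threshold, and 6 had an unadjusted p under 0.05 by Pearson's r. The rest of these were Rdh10 with luteal markers (r = -0.70, exact permutation p = 0.0071, adjusted p = 0.21), Crabp2 with luteal markers (r = -0.86, exact permutation p = 0.0089, adjusted p = 0.21) and Rdh10 with granulosa markers (r = -0.75, exact permutation p = 0.041, adjusted p = 0.60). Without CNTR replicate 3 and PAMH F3 replicate 4, their r was -0.91, -0.62 and 0.33. In the same order their rho was -0.75, -0.71 and -0.61 (exact permutation p = 0.066, 0.088 and 0.17, adjusted p = 0.60, 0.61 and 0.68). By rank alone, Aldh1a2 with endothelium markers (rho = 0.89, exact permutation p = 0.012, adjusted p = 0.54) was also under 0.05 before adjustment. So was Rdh10 with theca markers (rho = -0.86, exact permutation p = 0.024, adjusted p = 0.54). The part of oviduct RNA in the Crabp2 values was not tested further.

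**Figure D4:**
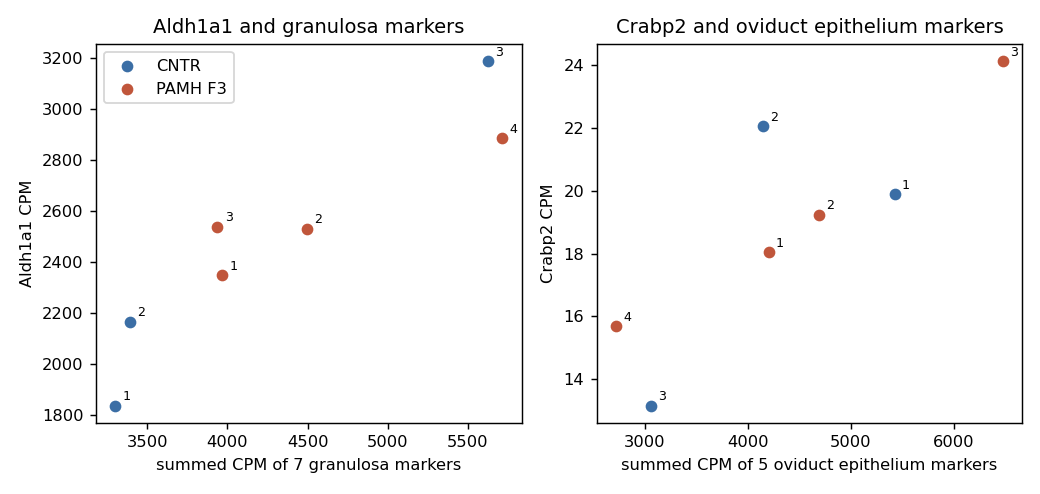
Left, Aldh1a1 against the summed CPM of 7 granulosa markers, mostly Inha and Inhba. Right, Crabp2 against the summed CPM of 5 oviduct epithelium markers, mostly Ovgp1. Each panel has 1 point per library labelled by its replicate number (blue CNTR, red PAMH F3). Aldh1a1 is high in CNTR replicate 3 and PAMH F3 replicate 4, the libraries in which Crabp2 is low, and both axes start above 0.

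The other genes of the pathway were taken from a list of 52 retinol carriers, oxidoreductases, receptors, cofactors and response genes, of which 43 passed the filter on low counts. In PAMH F3, 18 of the 43 were higher and 25 lower, with a median log2 difference of -0.01 against 0.01 over all tested genes. By edgeR's quasi-likelihood F test 0 were called, with adjusted p between 0.61 and 1.00 (Benjamini-Hochberg over all tested genes), and DESeq2 with the same surrogate variables called 0. At an unadjusted p under 0.05 there were 0 higher and 3 lower genes of 43, against 7.63% of all tested genes. Groups did not overlap in 4 of the 43 genes, all lower in PAMH F3, with Stra6l, Dhrs9 and Tgm2 among them, against 2.40% of all tested genes lower and 1.85% higher without overlap. The summed CPM of 5 stroma markers also did not overlap, at 1520 to 1572 in CNTR and 1158 to 1490 in PAMH F3, with 5 of 5 markers lower by mean CPM and 4 of 5 lower in the fit with surrogate variables, 0 called and none at 0. Its part in the 4 genes was not tested.

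Among genes of retinol uptake and carriage, Stra6l, a relative of the retinol transporter gene Stra6, was at 1.90, 1.92 and 2.04 CPM in CNTR and between 1.36 and 1.44 CPM in PAMH F3. The groups did not overlap, on counts of 63 to 66 in CNTR and 45 to 49 in PAMH F3. The log2 difference of -0.49 with a standard error of 0.18 did not pass the adjusted threshold (edgeR, adjusted p = 0.62). Stra6 itself overlapped between the groups, with a log2 difference of -0.09.

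Among oxidoreductases, Dhrs9 lay between 29.1 and 29.4 CPM in CNTR, at 27.4, 28.6 and 28.2 CPM in PAMH F3 replicates 1 to 3 and at 17.4 CPM in replicate 4. Its log2 difference was -0.20 with a standard error of 0.17 (edgeR, adjusted p = 0.81). The alcohol dehydrogenases Adh1 and Adh5 had the highest levels per kilobase of this group, 292 and 329 CPM per kilobase, with log2 differences of 0.13 (standard error 0.07) and -0.0019 (standard error 0.05). Aldh1a3, the gene of a further retinaldehyde dehydrogenase, and Aldh1a7 averaged 10.2 and 9.27 CPM per kilobase, with log2 differences of -0.11 and 0.02. Aldh1a7 is a close copy of Aldh1a1, so reads shared by both would have been left out of the unique counts, and values of both are uncertain to that extent. Cyp26c1, the remaining hydroxylase, had 2 counts in CNTR replicate 2 and 0 in the other 6 libraries.

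Of the carriers, Fabp5, which takes retinoic acid to other nuclear receptors, averaged 16.1 CPM per kilobase with a log2 difference of 0.19, and Crabp1 averaged 1.19 CPM per kilobase with a log2 difference of 0.60 and a standard error of 0.48. The receptors Rarg and Rxrb were the highest of their group, at 88.6 and 85.5 CPM per kilobase, and had log2 differences of -0.07 (standard error 0.10) and -0.0021 (standard error 0.06). This order rests on the length used, since per kilobase of merged exons Rxrb was at 19.0, Rxra at 14.5 and Rarg at 8.80 CPM, beside 7.02 for Rara. The cofactors Ncor1 and Nrip1 differed by -0.01 and 0.16.

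Among response genes, Tgm2, a transglutaminase induced by retinoic acid, was at 266, 263 and 254 CPM in CNTR and at 245, 252, 216 and 195 CPM in PAMH F3. The highest PAMH F3 library was just under the lowest CNTR library. Its log2 difference was -0.21 with a standard error of 0.10 (edgeR, adjusted p = 0.68). Rarres2, the gene of the secreted protein chemerin, had the highest level per kilobase of the response genes, 382 CPM per kilobase, and a log2 difference of -0.18. The groups of Rarres2 overlapped.

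**Figure D5:**
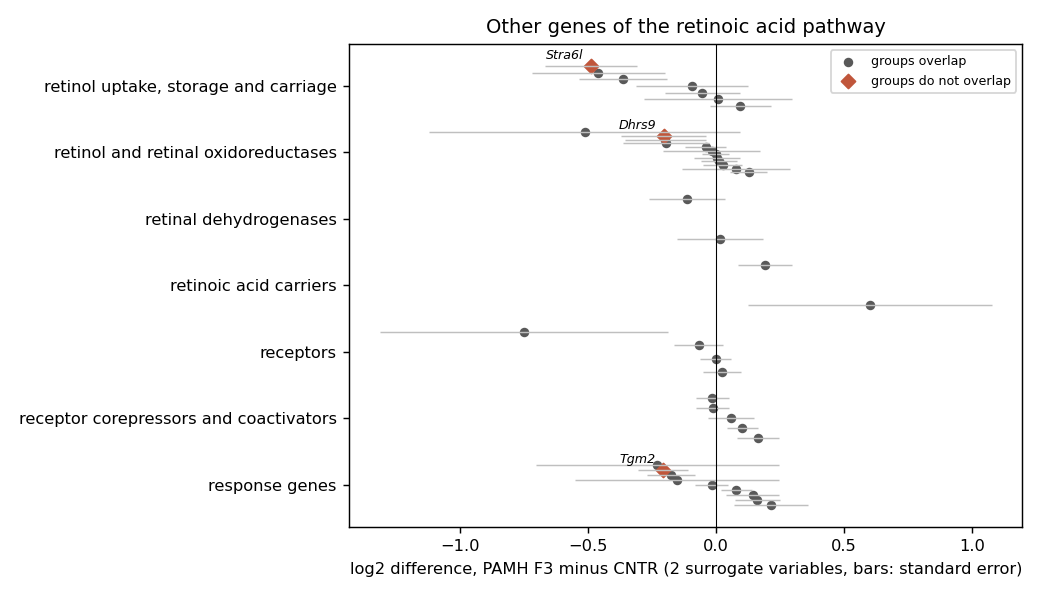
Log2 difference, PAMH F3 minus CNTR, of the tested pathway genes by group of function, with bars of 1 standard error from the fit with 2 surrogate variables (2 genes are left out). Red diamonds mark Stra6l, Dhrs9 and Tgm2, whose CNTR and PAMH F3 libraries do not overlap, and all lie below 0.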

How the data were processed

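Ovarian RNA of 3 CNTR and 4 PAMH F3 mice was analysed. Per the labels and methods, the authors prepared poly(A) libraries with strand marking, aligned single-end reads to mm10 with STAR 2.5.3a and counted uniquely aligned reads per gene with HTSeq 0.6.1p1 in union mode. The deposited values are these raw counts, without normalization, and 5 summary lines per library (between 45.8% and 47.5% of a library's total) were left out. The Ensembl release is not given in the sources used here. Of 55487 identifiers, 55394 were matched to GENCODE M21.

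Counts were normalized by TMM and tested with edgeR 4.0.16 (quasi-likelihood F test, filterByExpr with a minimum count of 10) in R 4.3.3, with 2 surrogate variables from svaseq in sva 3.50.0 (num.sv, 20 permutations, seed 1) as covariates and 3 residual degrees of freedom. P values were adjusted over 18779 genes by the Benjamini-Hochberg method at 0.05, since IHW was not used. Standard errors given are the size of the log2 difference divided by the square root of edgeR's F statistic. DESeq2 1.42.0 was an alternative, with fewer, more or no surrogate variables, other scaling and filters, robust fitting, a replicate block, a GC content and length correction, and each library left out. The edgeR and DESeq2 fits were also run on simulated counts with set group differences and, library size aside, no other factor between libraries. Values of that run are not given here. Correlations used log2 CPM (prior count 2) and exact permutation over all 5040 orders of 7 values. The edgeR p values measure the spread between the sequenced mice that is left after the surrogate variables. The permutation p values compare orders of the 7 libraries.

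Named genes were the 9 retinoic acid genes, pathway genes called or without overlap of the groups, the 2 highest per kilobase in each group of the pathway list, and the 3 genes most like Cyp26a1. Values of 2 pathway genes are not reported here, though the counts include them. Members and lists were chosen with earlier results of these data known.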

Additional observations from a re-analysis of the deposited data

Results flagged for a closer look

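Among the named genes, 28 PAMH F3 groups of 4 libraries were examined for a single library far from the rest by Dixon's test, and 2 libraries passed it. Chance gives about 1 in 20. Dhrs9 was at 17.4 CPM in PAMH F3 replicate 4, whereas PAMH F3 replicates 1 to 3 lay between 27.4 and 28.6 CPM. Stra6l was at 1.44 CPM in PAMH F3 replicate 4, whereas the same 3 lay between 1.36 and 1.37 CPM, a gap that is small beside its distance to the CNTR libraries. These Stra6l values rest on 46 counts in replicate 4 and on 48, 45 and 49 counts in replicates 1 to 3. None of the 9 retinoic acid genes was flagged. PAMH F3 replicate 4 was the lowest library of all in Dhrs3, Cyp26b1, Rara and Rarb.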

How the results depend on the processing

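The count of genes called between PAMH F3 and CNTR, 0 in edgeR with 2 surrogate variables, became 107 with DESeq2 and the same surrogate variables, 6 with DESeq2 and none, and 8 without a filter on low counts. With each library left out in turn it ranged from 0 to 37. Leaving out CNTR replicate 1 gave the 37, and leaving out PAMH F3 replicate 1 gave 31. The causes were not tested. Genes at an unadjusted p under 0.05 numbered 1432 in the main setting, 730 without surrogate variables, 757 with the GC content and length correction, 795 without PAMH F3 replicate 2 and 3256 without CNTR replicate 1. Pathway genes called stayed at 0 in all 18 alternatives.

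Of the 9 retinoic acid genes, Cyp26a1 was past the adjusted threshold in DESeq2 with the same surrogate variables and in edgeR without PAMH F3 replicate 1, and the other 8 in none of the 18 alternatives. Its values are not independent of how the genes were chosen. The difference of Aldh1a2 changed sign in 6 alternatives, that of Cyp26b1 in 2, and those of Aldh1a1 and Rara in 1 each. Levels per kilobase moved by more than 1 SD in 7 of the 9 genes with merged exon lengths and in none with median-ratio scaling or a library left out.

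The deviations of same-numbered libraries correlated at 0.096, 0.097 and -0.25, and those of differently numbered libraries between -0.24 and 0.28. So few values cannot show or exclude a pairing by replicate number. With the replicate block, 0 genes were called, 0 of them in the pathway list, and 442 had an unadjusted p under 0.05. PAMH F3 replicate 4 was alone in its block.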

Other observations

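Of the 31 genes with DR5 letters in a RefSeq promoter window, 18 were in the count tables and 8 passed the filter on low counts, Cyp26a1 and Rarb among them. The others were Blvrb, Cfap45, Gm13030, Prokr2, Syndig1 and Tnfsf13b. Of the 8 genes, 4 were higher and 4 lower in PAMH F3, with a median log2 difference of -0.09 against 0.01 over all tested genes, and 0 were called by edgeR. These 6 further genes were not chosen by their values. Groups did not overlap in 1 of the 8, lower in PAMH F3, against 2.40% of all tested genes lower and 1.85% higher. This was Tnfsf13b, which encodes the B-cell survival factor BAFF. It was at 4.19, 3.69 and 3.87 CPM in CNTR and 3.57, 3.25, 3.07 and 2.76 CPM in PAMH F3 (edgeR, adjusted p = 0.68). Blvrb, the gene of a biliverdin reductase, was highest in CNTR replicate 2 at 32.7 CPM, as Cyp26a1 was, and lay between 12.0 and 19.6 CPM in the other 6 libraries.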
